A study of Mus musculus with 6 samples.

Results

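Transcript levels of 10 regulators of the brown fat program were followed in cultured mouse brown preadipocytes that had been given fibroblast growth factor 8 (FGF8) before differentiation. The genes were Ppargc1a, Ppargc1b, Prdm16, Ebf2, Esrra, Esrrg, Ppara, Zfp516, Tfam and Nrip1. They were taken as a named list of 10 of the 26264 gene symbols in the count files, all 10 were found in each of the 6 libraries, and the question asked of them was whether they rise together with Ucp1 in FGF8-treated preadipocytes. The cells were brown preadipocytes from wild-type Bl6N mice, immortalized with the SV40 large T antigen. The titles and the methods do not say whether all 6 libraries came from 1 line or culture. In the FGF8 group, preadipocytes near confluence received 5.5 nM FGF8 for 48 h, and in the other group, called untreated in the sample titles and vehicle control in the methods, they received none. Cells were harvested at the end of this pretreatment (day 0), or after differentiation in the absence of FGF8 at day 3 and day 9. The titles name the last time point D7. It is called day 9 here as in the methods, which add 2 days of induction to 7 days on differentiation medium, while D3 of the titles is day 3 in both. The induction medium of both groups held insulin, T3, IBMX, dexamethasone, indomethacin and rosiglitazone, and the medium that followed held insulin, T3 and rosiglitazone, which is an agonist of PPARG. The growth protocol of the samples speaks of primary white preadipocytes, but the titles and the series design name immortalized brown cells.

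Each condition was 1 library, which leaves the difference of any day without a replicate check, and values are given per library without an SD. The libraries held between 16403254 and 38551551 counts. All 8 preadipocyte markers were counted at day 0, with a summed level of 133111 normalized counts in the untreated library and 33730 in the FGF8 library, and the adipocyte markers Adipoq, Plin1 and Cidec had at most 3 counts there and at least 8456 counts in every later library. The other adipocyte markers were less clear-cut. Lpl had 5617 and 1582 counts in the untreated and FGF8 libraries of day 0, and Pnpla2, Fabp4 and Lipe had between 43 and 272 there. Retn had 0 at day 0 and at least 498 later. The skeletal muscle genes Myod1, Myf5, Myf6, Ckm and Myh4 and the macrophage genes Adgre1 and C1qa were at 0 in all 6 libraries. Other genes of these lists were counted, with Cd68, Cd14 and Csf1r at up to 141, 128 and 61 counts and Acta1 and Ttn at up to 60 and 22. The day 0 libraries stood apart in Xist, the transcript of the inactive X chromosome, with 2530 counts in the untreated library and 5837 in the FGF8 library, against at most 26 in each library of days 3 and 9. The 4 Y-linked genes Ddx3y, Kdm5d, Uty and Eif2s3y had at least 703 counts in all 6 libraries. Every comparison of a later day with day 0 therefore also compares libraries that differ in Xist. The 2 libraries of day 0 differ in it from each other too, with size factors of 0.681 (untreated) and 0.781 (FGF8). The part of Xist in the results was not tested.

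Brown adipocytes burn fatty acids in abundant mitochondria and release the energy as heat through uncoupling protein 1 (UCP1). Their gene program is set by lineage factors, among them EBF2, which marks brown precursors and opens chromatin, and PRDM16, a coregulator that holds cells to the brown and beige fate. PPARA and the estrogen-related receptors ERRA (Esrra) and ERRG (Esrrg) are nuclear receptors that bind genes of fatty acid oxidation and of the respiratory chain. The coactivators PGC-1α (Ppargc1a) and PGC-1β (Ppargc1b) dock on such receptors, and PGC-1α is the classical cold-induced coactivator that acts on Ucp1. ZFP516 is a zinc finger protein that binds the Ucp1 promoter, TFAM packages and transcribes mitochondrial DNA, and RIP140 (Nrip1) is a corepressor that silences Ucp1 and oxidative genes in fat.

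The bases just upstream of the start are shown for Ppargc1a, whose difference after FGF8 changed direction between days, and for Esrra, Ppara and Tfam, the members in which a searched motif was matched. They were read from RefSeq promoters of GRCm38.p6, an older build than that of the counts, for which 7 of the 10 members matched with 11 entries. Ebf2, Ppargc1b and Zfp516 had no match. Each line gives the 250 bases before the start, 5′ to 3′ on the strand of the gene, with motif matches in capitals.
Ppargc1a, chr5:51567726-51567975, minus strand: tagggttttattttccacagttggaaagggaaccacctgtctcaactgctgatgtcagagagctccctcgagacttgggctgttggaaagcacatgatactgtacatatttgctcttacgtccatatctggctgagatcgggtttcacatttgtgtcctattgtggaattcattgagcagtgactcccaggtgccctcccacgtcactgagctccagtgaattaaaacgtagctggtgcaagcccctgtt
Esrra, chr19:6921809-6922058, minus strand: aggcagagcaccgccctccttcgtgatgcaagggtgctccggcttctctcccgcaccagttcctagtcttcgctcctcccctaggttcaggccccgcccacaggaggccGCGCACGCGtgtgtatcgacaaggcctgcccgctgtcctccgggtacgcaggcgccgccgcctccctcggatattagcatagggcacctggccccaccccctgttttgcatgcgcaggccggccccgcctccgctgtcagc
Ppara, chr15:85735526-85735775, plus strand: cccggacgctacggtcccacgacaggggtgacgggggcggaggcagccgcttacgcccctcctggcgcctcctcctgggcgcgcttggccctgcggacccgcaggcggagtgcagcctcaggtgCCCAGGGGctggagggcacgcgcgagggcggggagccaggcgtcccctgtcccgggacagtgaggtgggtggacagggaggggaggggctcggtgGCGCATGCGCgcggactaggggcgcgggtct
Tfam, chr10:71238045-71238294, minus strand: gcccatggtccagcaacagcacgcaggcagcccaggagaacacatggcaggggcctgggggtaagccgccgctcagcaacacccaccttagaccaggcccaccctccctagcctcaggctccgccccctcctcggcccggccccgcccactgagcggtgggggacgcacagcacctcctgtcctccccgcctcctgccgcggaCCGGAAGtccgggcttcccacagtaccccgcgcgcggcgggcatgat

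In these windows 5 motifs were searched on both strands, and a match is a description of the letters only. The element of NRF1, a factor of nuclear genes for mitochondria, was spelled GCGCANGCG and stood in 5.16% of 32851 RefSeq promoters of the same length. It was matched in Esrra, 141 bases before the start, and in Ppara on both strands at 31 and 30 bases before the start, where the matches overlap in a palindrome. The ETS element CCGGAAG, which the factor GABPA can bind, stood in 6.91% of promoters and in Tfam 47 bases before the start. The EBF element CCCNNGGG stood in 11.8% of promoters and in Ppara 126 bases before the start. The element of the estrogen-related receptors, TCAAGGTCA, and the cyclic AMP response element, TGACGTCA, stood in 0.387% and 1.55% of promoters and in no member's window. No motif was matched in the windows of Ppargc1a, Prdm16, Esrrg, Nrip1 or Ucp1. The windows cover only the listed RefSeq starts. Ppargc1a, with 14 annotated transcripts, had 1 window, and any other start of it was not searched.

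At day 0, the regulators did not move as a group with Ucp1. Ucp1 had 0 counts in untreated preadipocytes and 1037 counts, or 1328 normalized counts, after FGF8, which was 301-fold higher with the untreated library set to a floor of 3 counts. The 95% counting interval of the ratio, taken without that floor, began at 245-fold and had no upper limit. Normalized counts are counts divided by DESeq2 size factors, and a gene was called higher or lower at 2-fold or more if its mean in the pair was at least 20 normalized counts. Of the 10 regulators, 9 reached that mean. Prdm16 was the 1 called higher, where 7.27% of 12657 genes were, and Ppargc1a was the 1 called lower, where 10.8% were. The median log2 difference of the 9 was 0.10, beside 0.05 over all genes counted. Their 95% exact binomial (Clopper-Pearson) intervals, which cover counting error and not the variation between cultures, lay above 0 for 3 members (Prdm16, Tfam and Ebf2) and below 0 for 3 (Ppargc1a, Zfp516 and Nrip1). For well-counted genes a small difference is enough for this, such as the 0.11 of Ebf2. The share of all genes with such intervals was not computed. Markers moved in these libraries too. Of the 8 preadipocyte markers 5 were at least 2-fold lower after FGF8, with a median of -1.27, and of the 4 adipocyte markers above the minimum mean 2 were lower and 0 higher. The endothelial markers Kdr and Tek, the 2 of that list above the minimum mean, were both lower after FGF8. Kdr had 877 and 6 counts and Tek had 222 and 33, with Cdh5 and Pecam1 of the same list at 10 counts or fewer in both libraries. In the other lists, 2 of 2 smooth muscle markers above the minimum mean and Csf1r of the macrophage list were lower. The part of these markers in the results was not tested.

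**Figure D1:**
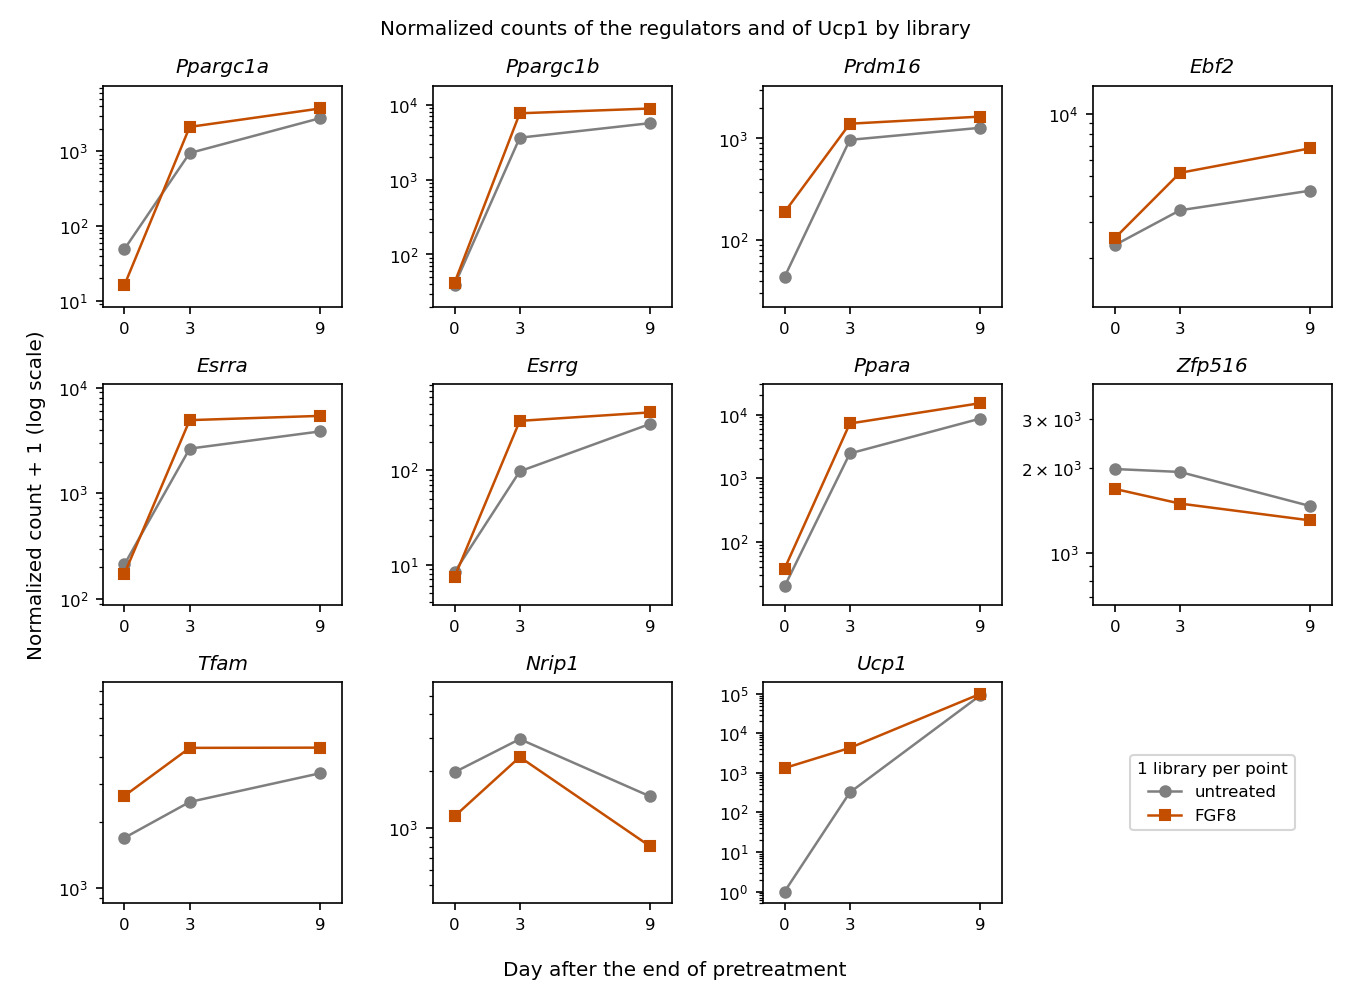
Normalized counts plus 1 on a log axis (its range differs between panels) against the day after the end of pretreatment, for each regulator and for Ucp1, with circles for untreated and squares for FGF8 libraries, 1 library per point. Ucp1 is the gene with the widest gap at day 0, from 0 to 1328 normalized counts, while Prdm16 lies above and Ppargc1a below the untreated library there.

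Prdm16, a protein-coding gene, spans 154400581 to 154721625 of chromosome 4 in GRCm39. At day 0 the untreated library held 29 counts and the FGF8 library 147, or 42.6 and 188 normalized counts. It was 4.42-fold higher (log2 difference 2.12, 95% interval 1.56 to 2.77). The FGF8 level was still 5.15-fold below (4.31 to 6.18) the 969 normalized counts of untreated cells at day 3. At day 3 the FGF8 library had 1397 normalized counts of Prdm16, and at day 9 the untreated library had 1273 and the FGF8 library 1641. The gap between the treatments was thus narrower later, with log2 differences of 0.53 (0.41 to 0.65) and 0.37 (0.27 to 0.46).

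Ebf2, on chromosome 14 from 67470736 to 67668394, was abundant from the start. It had 2315 normalized counts in untreated preadipocytes and 2500 after FGF8, a log2 difference of 0.11 (0.01 to 0.21). At day 3 it had 3412 in the untreated library and 5175 in the FGF8 library, and at day 9 it had 4246 and 6805. The FGF8 library was the higher one on each day, with log2 differences of 0.60 (0.54 to 0.67) at day 3 and 0.68 (0.63 to 0.73) at day 9, both short of 2-fold. Of the 8 members with positive differences on both of these days, Ebf2 was the one with the larger value at day 9, and the difference between the days was not tested.

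Zfp516, on chromosome 18, went the other way. Its normalized counts were 1989, 1942 and 1470 in the untreated libraries of days 0, 3 and 9 and 1691, 1501 and 1308 in the FGF8 libraries. The FGF8 library was lower on each day, by log2 differences of -0.23 (-0.34 to -0.12), -0.37 (-0.47 to -0.28) and -0.17 (-0.26 to -0.07). Ucp1 was thus counted in preadipocytes in which transcripts of this Ucp1 promoter-binding protein were slightly fewer than in the untreated library.

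Of the coactivators, Ppargc1a was scarce in preadipocytes. It lies on chromosome 5 of GRCm39 from 51611592 to 51725068 on the minus strand. Its 33 counts in the untreated and 12 counts in the FGF8 library of day 0, or 48.5 and 15.4 normalized counts, were a 3.16-fold lower level after FGF8 (log2 difference -1.60, 95% interval -2.75 to -0.67). At day 3 the order turned. Untreated cells had 951 and FGF8-pretreated cells 2130 normalized counts, 2.24-fold higher (log2 difference 1.16, 1.05 to 1.28), and at day 9 the libraries had 2785 and 3755 (0.43, 0.37 to 0.49). Within the FGF8 series Ppargc1a was 139-fold higher at day 3 than at day 0, and within the untreated series it was 19.6-fold higher.

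Its paralog Ppargc1b gave no detectable difference in preadipocytes. The gene lies on chromosome 18. It had 26 and 32 counts at day 0, or 38.2 and 41.0 normalized counts, and the log2 difference of 0.10 had an interval from -0.69 to 0.91. At day 3 the untreated library had 3643 and the FGF8 library 7726 normalized counts, 2.12-fold higher (log2 difference 1.08, 1.03 to 1.14). At day 9 it had 5703 and 8948, a log2 difference of 0.65 (0.61 to 0.69). Per kb of exon, Ppargc1b was the more abundant PGC-1 transcript in 5 of the 6 libraries, by 2.50-fold to 4.68-fold. In untreated preadipocytes its level per kb was 0.963 of that of Ppargc1a. That ratio rests on 26 counts of Ppargc1b and 33 of Ppargc1a. By the longest transcript Ppargc1b was the higher one there too, at 9.55 against 7.07 per kb. The ratio in FGF8-treated preadipocytes, 3.26, rests on 32 and 12 counts.

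Among the receptors, Ppara, on chromosome 15 from 85618656 to 85687067, had the widest range. It had 13 and 29 counts in the untreated and FGF8 libraries of day 0, or 19.1 and 37.1 normalized counts (log2 difference 0.92, -0.03 to 2.03). At day 3 it had 2445 and 7228 normalized counts, 2.96-fold higher after FGF8 (log2 difference 1.56, 1.49 to 1.63), and at day 9 it had 8630 and 15075 (0.80, 0.77 to 0.84). Ppara was higher in the FGF8 library on each day, with an interval that reached below 0 at day 0 only.

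Esrrg, on chromosome 1 from 187340988 to 187947082, was the rarer of the ERR genes. It had 5 counts in each library of day 0, too few for the minimum mean. At day 3 the untreated library had 96.7 and the FGF8 library 334 normalized counts, 3.45-fold higher (log2 difference 1.78, 1.44 to 2.16), the highest of the 10 on that day. At day 9 the libraries had 310 and 411 (0.41, 0.22 to 0.60). The level after FGF8 at day 3 was thus close to the untreated level at day 9.

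Esrra, on chromosome 19 from 6888338 to 6899336, had 213 and 174 normalized counts at day 0 (log2 difference -0.29, -0.64 to 0.06), 2647 and 4918 at day 3 (0.89, 0.82 to 0.97) and 3849 and 5397 at day 9 (0.49, 0.44 to 0.54). It passed from slightly lower, with an interval that included 0, to higher in the FGF8 library, short of 2-fold. Per kb of exon, Esrra exceeded Esrrg in every library, by between 15.4-fold and 36.1-fold. The exons of Esrra overlap Mir6990 on the same strand and Trmt112 on the other strand, and those of Ppara overlap Cdpf1 on the other strand, and since the strand setting of the counting is not given in the sources used here, reads of these genes may be shared or left out.

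**Figure D2:**
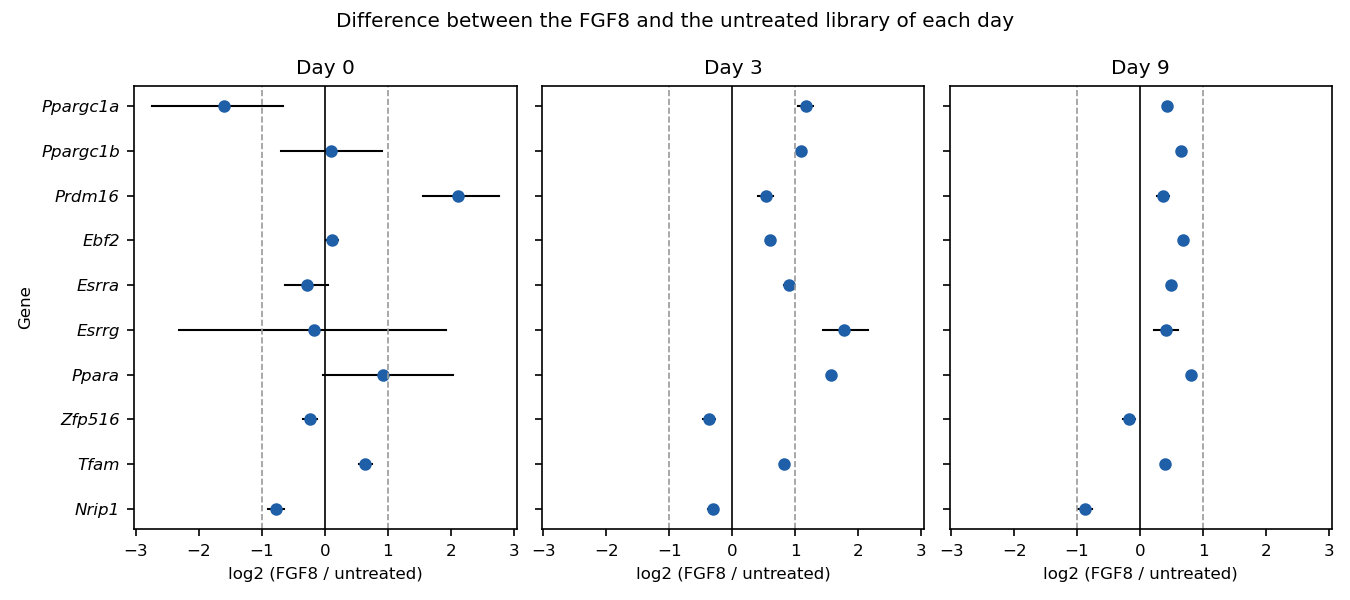
Log2 ratio of the FGF8 to the untreated library for each regulator at days 0, 3 and 9, with bars for the 95% counting interval and dashed lines at 2-fold in either direction. At day 0 Prdm16 (2.12) and Ppargc1a (-1.60) lie past the dashed lines, at day 3 Ppargc1a, Ppargc1b, Esrrg and Ppara do, and at day 9 no regulator does.

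Tfam lies on chromosome 10 from 71061287 to 71074110. It had 1697 normalized counts in untreated and 2644 in FGF8-treated preadipocytes, a log2 difference of 0.64 (0.54 to 0.75). At day 3 it had 2477 and 4385 (0.82, 0.75 to 0.90) and at day 9 it had 3354 and 4396 (0.39, 0.33 to 0.45). It was the higher one after FGF8 on each day, short of 2-fold, and the FGF8 level at day 0 was 1.07-fold (1.00 to 1.14) that of untreated cells at day 3.

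Nrip1, the corepressor gene on chromosome 16 from 76084280 to 76170774, was lower in the FGF8 library on each day. It had 1971 normalized counts in the untreated library and 1153 in the FGF8 library of preadipocytes, which is a log2 difference of -0.77 (-0.90 to -0.65). At day 3 it had 2946 and 2370 (-0.31, -0.39 to -0.24) and at day 9 it had 1469 and 801 (-0.87, -0.99 to -0.76). Nrip1 was highest at day 3 in both series, unlike the other members.

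At day 3, 4 of the 10 regulators were 2-fold or more higher after FGF8, namely Ppargc1a, Ppargc1b, Esrrg and Ppara, where 3.8% of 12892 genes were, and 0 were at least 2-fold lower, where 12.1% were. With total counts as the scaling Ppargc1b was at 0.98 on the log2 scale, just under 2-fold. The median of the 10 was 0.86, beside 0.08 over all genes. At day 9, 0 of 10 were called in either direction, where 1.12% of 13070 genes were called higher and 8.74% lower, and the median was 0.42, beside 0.08 over all genes. On both days 8 intervals lay above 0 and 2, those of Zfp516 and Nrip1, below 0, again without a share of all genes to set beside them. Markers of differentiation differed in the same direction at day 3. All 8 adipocyte markers, which include Fabp4 and Plin1, were higher after FGF8. Their median log2 difference was 0.77, with a summed level of 395878 normalized counts in the untreated library and 690833 in the FGF8 library. The 7 preadipocyte markers counted were all at least 2-fold lower, with a median of -1.79. Their part in the differences of the regulators was not tested, and in these bulk samples more cells that had begun to differentiate and more RNA per cell cannot be told apart. Of the other marker lists, the genes above the minimum mean had medians at day 3 of -2.65 (2 endothelial), -1.50 (3 macrophage) and -1.17 (5 smooth muscle). At day 9 the 8 adipocyte markers had a median of 0.29, and 6 of 6 preadipocyte markers above the minimum mean were at least 2-fold lower, with a median of -2.04. The endothelial, macrophage and smooth muscle lists had medians of -2.62, -1.50 and -1.07 there.

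Set beside the untreated course, FGF8-treated preadipocytes held Ucp1 at a level that untreated cells reached only after day 3, while 7 of the 10 regulators were at least 2-fold below the level of those untreated day 3 cells. The share of all genes that far below over this pair was not computed, so the 7 are a description. Many genes differ between these days, and 26.2% rose from day 0 to day 3 in the edgeR model described below. Ucp1 in the FGF8 library of day 0 was 4.16-fold (3.62 to 4.79) that of untreated cells at day 3. Over the same pair of libraries Ppargc1b was 88.9-fold lower (62.8 to 130.2), Ppara was 65.9-fold lower (45.7 to 98.6) and Ppargc1a was 61.9-fold lower (35.2 to 120.3). These coactivators and PPARA were thus at 1.12% to 1.62% of the level of untreated day 3 cells. Esrra and Esrrg were 15.2-fold (12.8 to 18.2) and 15.1-fold (6.20 to 47.9) lower, and Nrip1 was 2.55-fold lower (2.36 to 2.76). Ebf2, Zfp516 and Tfam were within 1.5-fold of the untreated day 3 level, at 73.3%, 87.1% and 106.7%. These 2 libraries differ in FGF8, in the induction medium and in Xist, which cannot be told apart here.

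**Figure D3:**
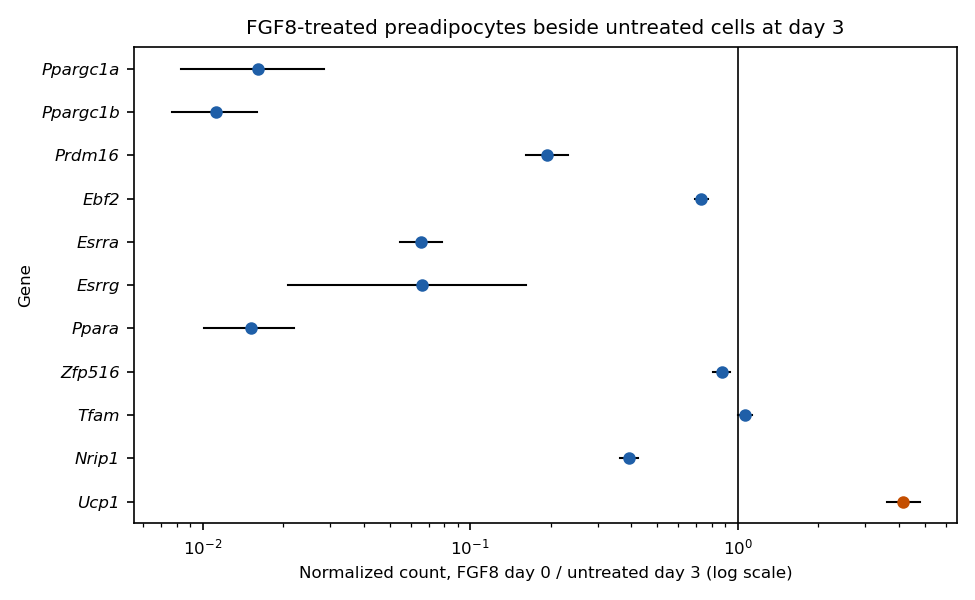
Ratio on a log axis of normalized counts in FGF8-treated preadipocytes (day 0) to those in untreated cells at day 3, 1 library each, with bars for the 95% counting interval and a line at equal levels. Ucp1 lies above the line at 4.16, Tfam is at 1.07, and Ppargc1a, Ppargc1b and Ppara lie near 0.01 to 0.02.

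Per kb of exon, a scale on which genes can be compared, Ucp1 had 684 normalized counts per kb in FGF8-treated preadipocytes. That was above the 562 of Tfam, the most abundant regulator there, and far above the 2.18 of Ppargc1a and the 5.64 of Ppara. In untreated preadipocytes the order was Tfam (361), Ebf2 (309), Zfp516 (217), Nrip1 (160) and Esrra (42.7), followed by Ppargc1a, Ppargc1b, Prdm16, Ppara and Esrrg at 6.86 or less. FGF8 left the first 5 in the same order and moved Prdm16 to the sixth place, at 19.6 per kb. By the longest transcript in place of all exons, Tfam and Ebf2 changed places with each other between the treatments, and so did Zfp516 and Nrip1. At day 9 Ppara led, with 1310 per kb in the untreated library and 2289 in the FGF8 library, followed by Ppargc1b with 987 and 1548 and by Esrra with 771 and 1082. Zfp516 had dropped from the third place to seventh in the untreated and eighth in the FGF8 series, and Nrip1 was last after FGF8 at 64.8. The longest transcript changed places at day 9 as well. In the untreated library Esrra (1492 per kb) then stood above Ppargc1b (1427), and after FGF8 Nrip1 (99.0) stood above Esrrg (76.5), which was last. Without replicates, the spread of neighbours in this order is not known.

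Most of the regulators rose with the day of differentiation. A model over the 6 libraries, in which the untreated and the FGF8 library of a day stand in for replicates, was fitted in edgeR (quasi-likelihood test) with calls at a Benjamini-Hochberg adjusted p under 0.05 over 14569 genes. Between day 0 and day 3, 9 of 10 regulators rose, all but Zfp516, where 26.2% of genes did. Between day 0 and day 9, 8 rose, all but Zfp516 and Nrip1, where 29.2% of genes did. The rise to day 3 was 7.39 on the log2 scale for Ppara (SE 0.311, Benjamini-Hochberg adjusted p = 0.00192 in edgeR's quasi-likelihood test), 7.15 for Ppargc1b (SE 0.320), 5.58 for Ppargc1a (SE 0.684), 4.86 for Esrrg (SE 0.602), 4.28 for Esrra (SE 0.336) and 3.59 for Prdm16 (SE 0.483). It was below 1 for Nrip1 (0.88), Ebf2 (0.86) and Tfam (0.70). For these 3 the call was lost without FGF8 as a block or without day 9, with edgeR adjusted p-values of up to 0.163 for Nrip1, 0.0837 for Ebf2 and 0.177 for Tfam. Zfp516 had values of -0.04 at day 3 and -0.36 at day 9, with edgeR adjusted p-values of 0.853 and 0.102. Between day 3 and day 9, 0 of 10 were called, where 0.0686% of genes were. At an unadjusted p under 0.05 there were 2, Nrip1 (-1.31) and Ppara (1.41), a share near the 21.3% of all genes. DESeq2's Wald test called both, where it called 9.5% of genes.

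For an FGF8 effect shared by the 3 days, where a response that varies from day to day adds to the error, 0 of 10 regulators were called by edgeR, where 1.27% of genes were. At an unadjusted p under 0.05 there were 5, where 23.3% of genes were, and DESeq2's Wald test called 3 (Ppara, Tfam and Nrip1), where it called 12.4% of genes. Ppara had the lowest Benjamini-Hochberg adjusted p, 0.0816 in edgeR's quasi-likelihood test, with a log2 difference of 1.12 (SE 0.203) and higher values in 3 of 3 pairs; over the alternative fits its adjusted p ran from 0.000681 to 1.00. Tfam (0.60, SE 0.133, higher in 3 of 3 pairs) and Nrip1 (-0.67, SE 0.150, lower in 3 of 3 pairs) each had an adjusted p of 0.109 in that test. Without day 0, where the test called 15.5% of genes, it called 7 regulators, namely Ppargc1a, Ppargc1b, Ebf2, Esrra, Ppara and Tfam as higher and Nrip1 as lower. The test then rests on the libraries of days 3 and 9, in which the adipocyte markers were also higher after FGF8.

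Across the 6 libraries, Pearson correlations with Ucp1 of log2(normalized count + 1) are given as a description, since the libraries form a time course. They were 0.88 for Tfam, 0.86 for Prdm16, 0.80 for Ppara, 0.79 for Ebf2, 0.76 for Esrrg, 0.73 for Ppargc1b, 0.71 for Esrra and 0.68 for Ppargc1a, and negative for Nrip1 (-0.51) and Zfp516 (-0.89). Of 13255 genes, 3.67% had a correlation at least as high as that of Tfam, 5.1% as high as that of Prdm16 and 22.1% as high as that of Ppargc1a.

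The genes that work with the regulators were described from lists of partners and of target genes. Of 22 partners of the PGC-1 coactivators and the ERRs, 20 were counted, and 0, 1 and 0 reached 2-fold higher levels after FGF8 at days 0, 3 and 9, with 0 lower on any day and medians of 0.13, 0.11 and 0.01. The 1 was Perm1, an ERR-induced regulator of oxidative genes, with 353 and 966 normalized counts at day 3 (log2 difference 1.45, 1.27 to 1.65). Nrf1 had 953 and 1580 normalized counts at day 0 (0.73, 0.59 to 0.87). The letters of its factor's element were matched in Esrra and Ppara, but binding there was not measured. Of 25 partners of PRDM16 and EBF2 and other activators of brown fat, 19, 24 and 23 were above the minimum mean, and 1 was higher and 2 were lower at day 0, 2 were higher and 3 lower at day 3, and 0 were higher and 2 lower at day 9. Cebpb, the PRDM16 partner C/EBPβ, had 197 and 401 normalized counts at day 0 (1.02, 0.73 to 1.33). Nfia, a factor that acts with EBF2, had 2531 and 1211 there (-1.06, -1.18 to -0.95). The partners thus had medians between -0.05 and 0.13 on all days, near the 0.05 to 0.08 of all genes. Of all genes, 7.27%, 3.8% and 1.12% were at least 2-fold higher at days 0, 3 and 9, and 10.8%, 12.1% and 8.74% lower. The partners named are therefore described as single genes and not as a result for the lists.

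Among 17 repressors of the brown program, of which 15 were above the minimum mean on each day, 1 was at least 2-fold lower on each day and 0 were higher, and it was Zfp521, the antagonist of EBF2. Of all genes, 10.8%, 12.1% and 8.74% were at least 2-fold lower at days 0, 3 and 9, and 7.27%, 3.8% and 1.12% higher. The description is therefore of this 1 gene and not of the list. Zfp521 had 3292 normalized counts in untreated and 926 in FGF8-treated preadipocytes, 1679 and 465 at day 3, and 653 and 185 at day 9. The FGF8 library was lower on each day by a similar ratio, with log2 differences of -1.83 (-1.95 to -1.71), -1.85 (-1.99 to -1.72) and -1.82 (-2.04 to -1.61). It was the 1 gene of the partner, repressor and target lists that edgeR called for an FGF8 effect shared by the 3 days (log2 difference -1.86, SE 0.125, Benjamini-Hochberg adjusted p = 0.0429 in its quasi-likelihood test, lower in 3 of 3 pairs). Over all 14569 genes the same test called 1.27%. The preadipocyte markers Pdgfra, Pdgfrb and Dlk1 were also called lower in that test, and whether Zfp521 moved with them was not tested. The fits without day 3, without day 9 and without a day block called 0 genes for the FGF8 effect, so the call of Zfp521 was not kept in them.

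The genes that copy and express mitochondrial DNA, the process in which TFAM acts, were 18. At day 0, 2 were at least 2-fold higher and 0 lower, with a median of 0.51. At days 3 and 9 0 were called, with medians of 0.60 and 0.35. Of all genes, 7.27%, 3.8% and 1.12% were at least 2-fold higher at days 0, 3 and 9, and 10.8%, 12.1% and 8.74% lower. The 2 genes called at day 0 are thus a description of single genes and not of the list. Lonp1, the mitochondrial protease that degrades TFAM, had 2741 and 7978 normalized counts in untreated and FGF8-treated preadipocytes (log2 difference 1.54, 1.47 to 1.62). Tfb2m, the mitochondrial transcription factor that melts promoters, had 118 and 238 (1.01, 0.63 to 1.42). The log2 difference was above 0 for 15 of the 18 at day 0 and for 18 of 18 at days 3 and 9, where 54.1%, 55.5% and 59.2% of all genes were. No mitochondrially encoded gene is in the files, so the output of this machinery was not analysed here.

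The 3 lists of target genes had a day 3 pattern like that of the receptors. Shares are read against the percentages of all genes given above for each day. Of 24 targets of the ERRs and PGC-1 in oxidative metabolism, 22, 23 and 23 were above the minimum mean on the 3 days, and 1 was higher and 1 lower at day 0, 8 were higher and 0 lower at day 3, and 0 were called at day 9, with medians of 0.19, 0.93 and 0.42. At day 3 the cytochrome c oxidase subunit Cox7a1 had 151 and 716 normalized counts (log2 difference 2.23, 1.97 to 2.53), and cytochrome c (Cycs) had 10103 and 23517 (1.22, 1.18 to 1.25). At day 0 the 1 higher gene was Vegfa, the angiogenic factor, with 978 and 4102 (2.07, 1.95 to 2.19).

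Of 20 targets of PPARA in fatty acid oxidation, 16, 19 and 20 were above the minimum mean, and 2 were higher and 1 lower at day 0, 7 were higher and 0 lower at day 3, and 1 was higher and 1 lower at day 9, with medians of -0.37, 0.86 and 0.12. The higher ones at day 0 were the hormone gene Fgf21, with 2 and 64 counts (a ratio of 27.9 between normalized counts, 95% interval 7.41 to 235), and the thioesterase Acot2 (1.96, 1.65 to 2.30), and the lower one was the kinase Pdk4, with 1481 and 257 normalized counts (-2.52, -2.75 to -2.30). Most targets counted at day 0, 12 of 16, had a log2 difference below 0.

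Of 18 brown fat targets of PRDM16 and EBF2, 10, 16 and 17 were above the minimum mean, and 0 were higher and 3 lower at day 0, 7 were higher and 0 lower at day 3, and 0 were higher and 1 lower at day 9, with medians of -0.22, 0.87 and -0.11. Plin5 is in this list and in that of PPARA. At day 0, where Prdm16 was higher after FGF8, the listed targets Dio2, the thyroid hormone-activating deiodinase, and Kng2 were lower, with 304 and 60.2 normalized counts (-2.32, -2.83 to -1.87) and 96.9 and 11.5 (-2.97, -4.26 to -2.06). Cidea, a lipid droplet protein of brown fat, had 26 counts in the untreated library and 592 in the FGF8 library at day 3, a ratio of 12.6 between normalized counts (8.48 to 19.4). At day 9 Cidea had 23470 and 37734 normalized counts (0.69, 0.66 to 0.71).

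**Figure D4:**
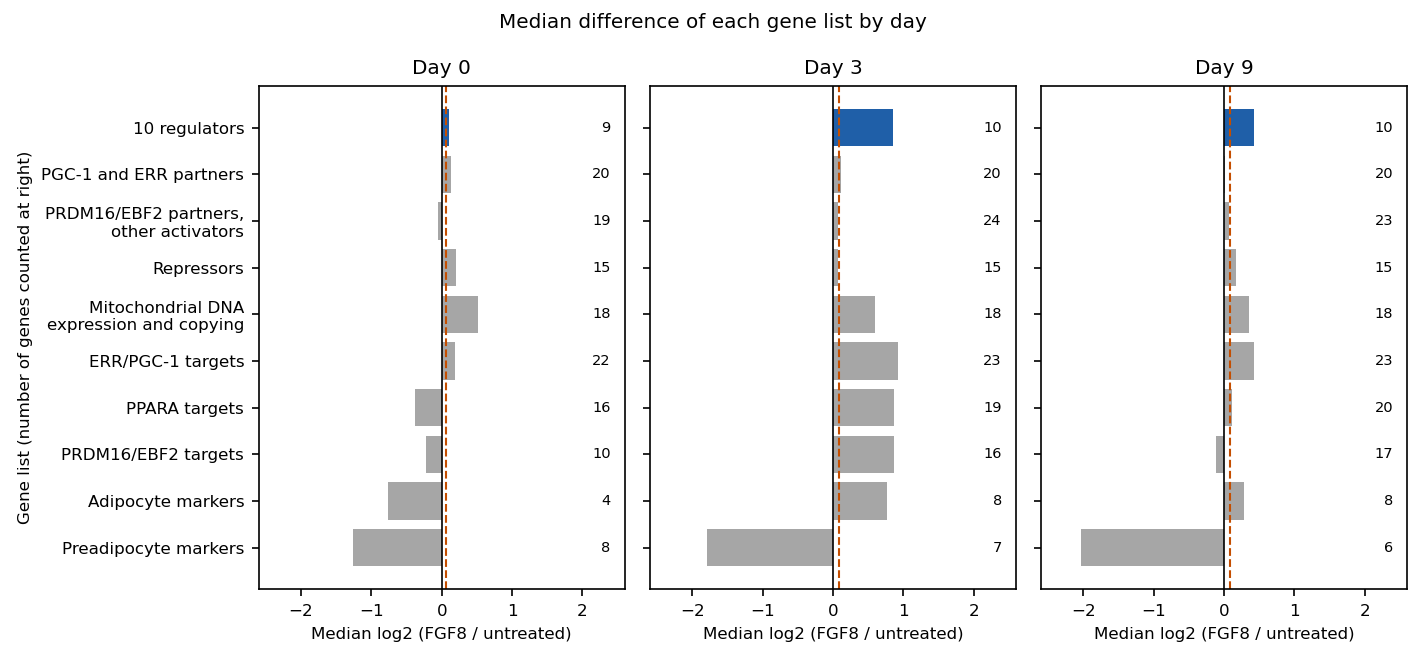
Median log2 ratio of the FGF8 to the untreated library for the regulators and for each list of partners, targets and cell type markers, by day, with the number of genes counted at the right edge and a dashed line at the median of all genes counted. At day 3 the regulators (0.86), the 3 target lists (0.86 to 0.93) and the adipocyte markers (0.77) lie to the right and the preadipocyte markers (-1.79) to the left, while the partner lists lie near the line of all genes.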

How the data were processed

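RNA of 6 libraries, 1 for each of 2 treatments and 3 days, was sequenced from a stranded mRNA kit. The counts deposited by the authors are raw reads per gene from featureCounts, after trimming (TrimGalore) and alignment with HISAT2 to the GRCm39 genome. Tool versions, annotation, strand setting and the treatment of multimapping reads are not given in the sources used here. The libraries held 16403254 to 38551551 counts, so intervals are wide only for scarce genes.

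Size factors by median of ratios came from DESeq2 1.42.0. A difference is that of log2(normalized count + 1), FGF8 minus untreated, with a 95% Clopper-Pearson interval of the count ratio, which covers counting error only, as does the floor of 3 counts. Models used edgeR 4.0.16 (TMM, filterByExpr, quasi-likelihood test, day and FGF8 as terms, 2 residual degrees of freedom, Benjamini-Hochberg adjustment over 14569 genes). The code was run on simulated counts without day effects and with the same FGF8 effect on each day. Since both differ from these data, that run does not show how the p-values hold here. The labels do not say that libraries came from separate cultures, so p-values measure the spread between these libraries. Levels per kb used the union of exons in GENCODE M39, in which 23897 symbols (91.0%) were found. Software was Python 3.11.15 with pandas 2.3.3 and scipy 1.17.1, and R 4.3.3. The alternatives were other scalings, pseudocounts, filters and fold rules, DESeq2's Wald test, fits without a block and fits without each day.

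The regulators and gene lists were chosen with earlier results of these data known. List genes named are the up to 4 with the largest absolute difference in a comparison.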

Additional observations from a re-analysis of the deposited data

Results flagged for a closer look

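For Ppargc1a the difference between the FGF8 and the untreated library changed direction between days, each time beyond its counting interval. It was -1.60 on the log2 scale at day 0, 1.16 at day 3 and, at day 9, 0.43. The change between days was not tested, since each condition is 1 library, and the value of day 0 rests on 33 and 12 counts.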

How the results depend on the processing

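Over 150 recomputed log2 differences of the 10 regulators under other scalings and pseudocounts, 0 changed sign and 14 moved by more than their counting interval. Another scaling moved a regulator by at most 0.11. Total counts moved the median of all genes at day 3 from 0.08 to -0.03 and brought Ppargc1b there to 0.98, just under 2-fold. With a 1.5-fold rule, 3 regulators were higher and 2 lower at day 0, 7 were higher at day 3, and 3 were higher and 1 lower at day 9. With a 4-fold rule, 0 were lower at day 0 and 0 higher at day 3, and with the minimum mean raised to 100 normalized counts, 0 were lower at day 0. For the FGF8 effect shared by the 3 days, 3 regulators were called by DESeq2's Wald test and between 0 and 7 on leaving out a day, 7 of them without day 0, against 0 in the edgeR fit of all days. Between day 9 and day 3, 2 were called by DESeq2's Wald test, 1 without a filter on low counts and 3 without day 0, against 0. Over all genes the edgeR fit called 185 for the shared FGF8 effect, DESeq2's Wald test 1696, RLE factors 110, no filter 419 and the fit without day 0 2230. The fits without day 3, without day 9 and without a day block each called 0, and 1510, 1868 and 575 genes had an unadjusted p under 0.05. Between day 9 and day 3 the number over all genes was 10, against 1336 with DESeq2's Wald test, 268 without a filter, 3 without an FGF8 block and 3043 without day 0. Of the day effects, the fits without an FGF8 block called 4436 genes and those without day 9 3894 between days 0 and 3, against 6707, and Tfam was no longer called at day 9 without an FGF8 block. By the longest transcript in place of the union of exons, 25 places in the order of levels differed. The causes of these changes were not tested. Each group holds 1 library, so the pairing available is that of the 2 libraries of a day, which the edgeR fit holds as its day block.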
